A study of Mus musculus with 12 samples.

Results

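Amino acids and several neurotransmitters cross membranes on carriers of the solute carrier (SLC) families. Here 65 genes of 7 such families were measured in mouse colon where diphtheria toxin had been directed at enteric neurons. The genes were taken by symbol from the series table of 27179 genes: every gene named Slc1a, Slc3a, Slc6a, Slc7a, Slc36a, Slc38a or Slc43a followed by a number, with the serotonin transporter Slc6a4 left out. RNA came from full-thickness colon cut out where India ink marked the injection of toxin into the muscle layer. The ablated group (n = 7 libraries) had the genotype BAF53b-Cre::R26-iDTR and the control group (n = 5 libraries) the genotype R26-iDTR, titled Cre-Negative, so both carried the inducible toxin receptor and both underwent laparotomy and toxin injection. BAF53b is a chromatin remodelling subunit of neurons, and a Cre driven from its gene acts in neurons in general and not in 1 neuron class. Age, sex and the time between toxin and dissection are not given in the sources used here. The labels do not say that each library is a separate mouse, and the p-values then speak only to how far these libraries vary, which may be technical.

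Transporters of the SLC1 and SLC6 families use the sodium gradient to draw amino acids and transmitters into cells, and around synapses they end the action of glutamate, GABA and glycine. Transporters of the SLC7 family are either cationic amino acid carriers or light chains that reach the membrane bound to a heavy chain of the SLC3 family. The SLC36 family carries small amino acids with protons, the SLC38 family carries glutamine and its neighbours with sodium, and the SLC43 family holds facilitative carriers of large neutral amino acids. In the colon such carriers serve the epithelium, muscle and immune cells as well as neurons and glia.

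Of the 65 genes, 40 reached at least 0.5 TPM (a level scaled by transcript length and by the total of its library) in at least 5 libraries and were tested with limma on log2(TPM + 0.5), with Benjamini-Hochberg adjustment over all 16164 genes tested. The other 25 lay below that minimum. Slc7a14 and Slc6a12 were lower in ablated colon, which is 2 of 40 (5.0%) beside 1.01% of all genes tested, and no member was higher, beside 0.421% of all genes tested. Slc7a14 was the 1 tested member that reached the minimum through the control libraries alone, so the share of 2 in 40 is only a description of the genes that entered the fit. At an unadjusted p under 0.05 there were 3 lower members (7.5%, beside 4.75% of all genes tested) and 6 higher (15%, beside 7.07%), and voom on read numbers recovered from the TPM called 2 lower and 0 higher. The log2 fold change, ablated minus control, was positive in 26 of the 40 (65.0%, beside 55.7% of all genes tested), with a median of 0.09 beside 0.03.

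**Figure D1:**
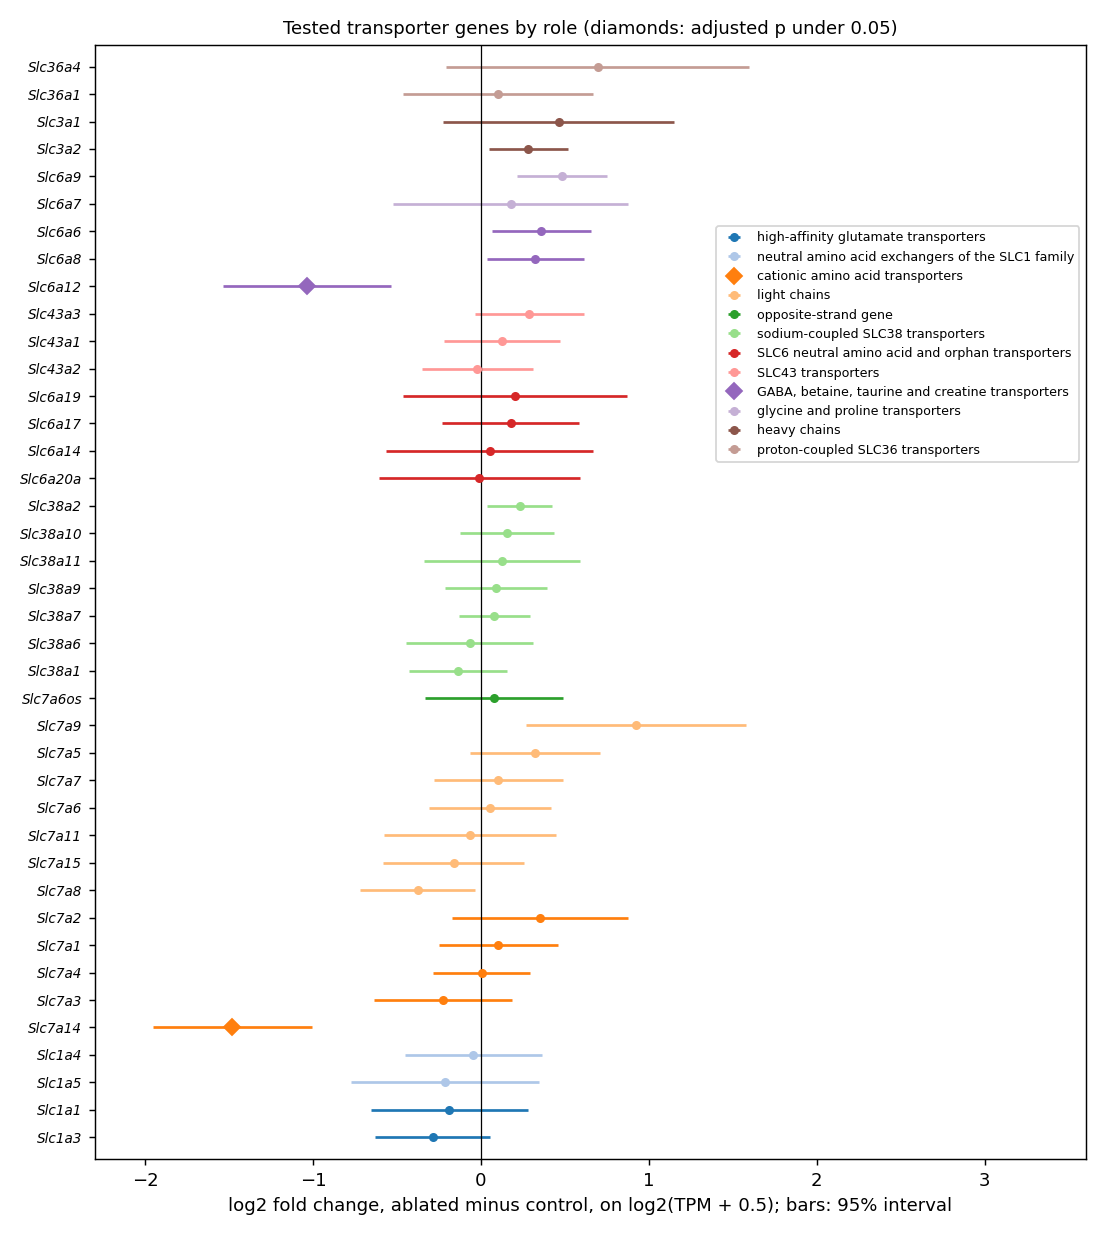
Log2 fold change of the 40 tested transporter genes (x axis, ablated minus control on log2(TPM + 0.5), n = 7 and 5 libraries) with 95% intervals, sorted and coloured by role. Diamonds mark Slc7a14 at -1.48 and Slc6a12 at -1.03, the 2 genes with an adjusted p under 0.05; most other intervals cross 0.

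The libraries held 13.4 to 26.9 M recovered reads. Neuron markers were lower in ablated colon for 7 of 8 genes, with summed levels of 78.0 to 181 TPM in control and 18.0 to 35.4 TPM in ablated libraries; none of the 8 was at 0. Of 6 enteric glia markers none passed by limma (3 lower at an unadjusted p under 0.05, 2 lower by voom, and Fabp7 lower with no minimum at an adjusted p of 0.0424), and their summed level was 37.6 to 47.3 TPM in control and 28.8 to 41.0 TPM in ablated libraries. Of 8 colonic epithelium markers none passed by limma or voom (3 higher at an unadjusted p under 0.05), with summed levels of 8752 to 11140 and 8515 to 15807 TPM. Of 6 plasma and B cell markers 1 was lower (Tnfrsf17, adjusted p = 0.0407, and 0.0515 with no minimum) and 5 were lower at an unadjusted p under 0.05, the median log2 fold change was -1.40, and their sum was 505 to 799 TPM in control and 82.6 to 514 TPM in ablated libraries. Markers of smooth muscle (6 tested), T cells (6), macrophages (6), fibroblasts (5), endothelium (5), interstitial cells of Cajal (2), mesothelium (3) and mast cells (3) held no gene that passed by limma with the minimum or by voom, with 1 higher at an unadjusted p under 0.05 among the interstitial and 1 among the mesothelium markers; with no minimum the interstitial marker Ano1 was higher (adjusted p = 0.0454). The summed level of the 2 interstitial markers was 88.8 to 115 TPM in control and 126 to 181 TPM in ablated libraries. Over all genes tested, 1.01% were lower and 0.421% higher at an adjusted p under 0.05. At an unadjusted p under 0.05 these shares were 4.75% and 7.07%. In bulk tissue fewer cells of a type and less RNA per cell cannot be told apart.

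Slc7a14, a relative of the cationic amino acid transporters that is found on lysosomes and expressed mainly in nervous tissue, had the largest log2 fold change of the 40. It lies on chromosome 3 from 31202858 to 31310378 on the minus strand (GRCm38/mm10, GENCODE M21), where it overlaps the antisense gene Gm15496. Its level was 0.511, 1.77, 1.70, 0.702 and 1.20 TPM in control libraries 1 to 5. In ablated libraries 1 to 7 it was 0.102, 0.122, 0.0452, 0.00986, 0.226, 0.0158 and 0.0159 TPM. The groups did not overlap: every ablated library lay below every control, and the highest ablated library (number 5) was still under the lowest control (number 1). The means were 1.18 ± 0.569 (SD, n = 5) and 0.0766 ± 0.0793 (SD, n = 7) TPM, a 15.4-fold lower level in ablated colon. The log2 fold change on log2(TPM + 0.5) was -1.48 (95% interval -1.95 to -1.01, limma adjusted p = 0.00318), a scale that understates the change of a gene this low. All 7 ablated values lie under the 0.5 TPM minimum, and in the fit with no minimum the limma adjusted p was 0.00195. The values rest on 653 recovered reads in the control group and 54 in the ablated group.

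Slc7a14 was 1 tested member of 40 whose groups did not overlap in the lower direction, beside 1.55% of all genes tested. As it entered the fit through the control libraries alone, the count of 1 in 40 is only a description. Over the 12 libraries the 5 genes outside these families with the most similar pattern were Snap91 (Pearson r of log2(TPM + 0.5) = 0.993), Fgf13 (0.988), Uchl1 (0.986), Tmem59l (0.985) and Slc5a7 (0.984). Uchl1 is among the neuron markers above and Slc5a7 is the choline transporter of cholinergic neurons. These correlations are a description over libraries that differ by group, with no test. The neuron markers moved with Slc7a14, and their part in its lower level was not tested.

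Slc6a12, which carries betaine and GABA and serves cells as an osmolyte transporter, was the other gene that passed. It lies on chromosome 6 from 121343076 to 121365775 on the plus strand. Its level was 2.31, 1.86, 3.27, 1.55 and 2.32 TPM in control libraries 1 to 5. In ablated libraries 1 to 7 it was 1.56, 0.874, 1.37, 0.544, 0.421, 0.843 and 0.521 TPM. Of the ablated libraries 6 lay below all controls, while ablated library 1 lay just above control library 4, so the groups overlapped at 1 point. The means were 2.26 ± 0.649 (SD, n = 5) and 0.877 ± 0.439 (SD, n = 7) TPM, a 2.58-fold lower level, on 347 and 181 recovered reads. The log2 fold change was -1.03 (95% interval -1.54 to -0.53, limma adjusted p = 0.0460).

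The Slc6a12 call sits close to the threshold. With 1 library left out in turn its limma adjusted p ran from 0.0164 to 0.154, and it passed only without ablated library 1 or 3; it was lost without any one of control libraries 1 to 5 or of ablated libraries 2, 4, 5, 6 and 7. In the authors' deposited table its false discovery rate was 0.0680, against 0.00441 for Slc7a14. The 5 genes with the most similar pattern to Slc6a12 over the 12 libraries were Methig1 (r = 0.929), Irs1 (0.923), Phactr1 (0.920), Sgf29 (0.918) and Frmd5 (0.913). The neuron markers were lower in ablated colon as well, and a list of 5 genes does not show how closely Slc6a12 followed them. The part of the neuron markers in the lower level of Slc6a12 was not tested.

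Slc6a15, a sodium-dependent carrier of branched-chain amino acids and proline known from neurons, lay below the minimum for testing and is described because it is the only untested member that passed when the minimum was removed. It lies on chromosome 10 from 103367783 to 103419377. Its level was 0.382, 0.655, 0.795, 0.634 and 0.498 TPM in control libraries 1 to 5 and 0.212, 0.114, 0.197, 0.144, 0.137, 0.115 and 0.212 TPM in ablated libraries 1 to 7. All ablated libraries lay below all controls, at 0.162 ± 0.0444 (SD, n = 7) against 0.593 ± 0.158 (SD, n = 5) TPM. Fitted with no minimum over 22842 genes, it had a log2 fold change of -0.71 (limma adjusted p = 0.00215), and 3 of 64 members were then lower and 0 higher, beside 1.20% of genes lower and 0.333% higher. It passed in that fit with each of the 12 libraries left out (adjusted p 0.000783 to 0.00874). Only 133 control and 49 ablated reads lie behind it, and the authors' deposited table gives it a false discovery rate of 0.00529.

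**Figure D2:**
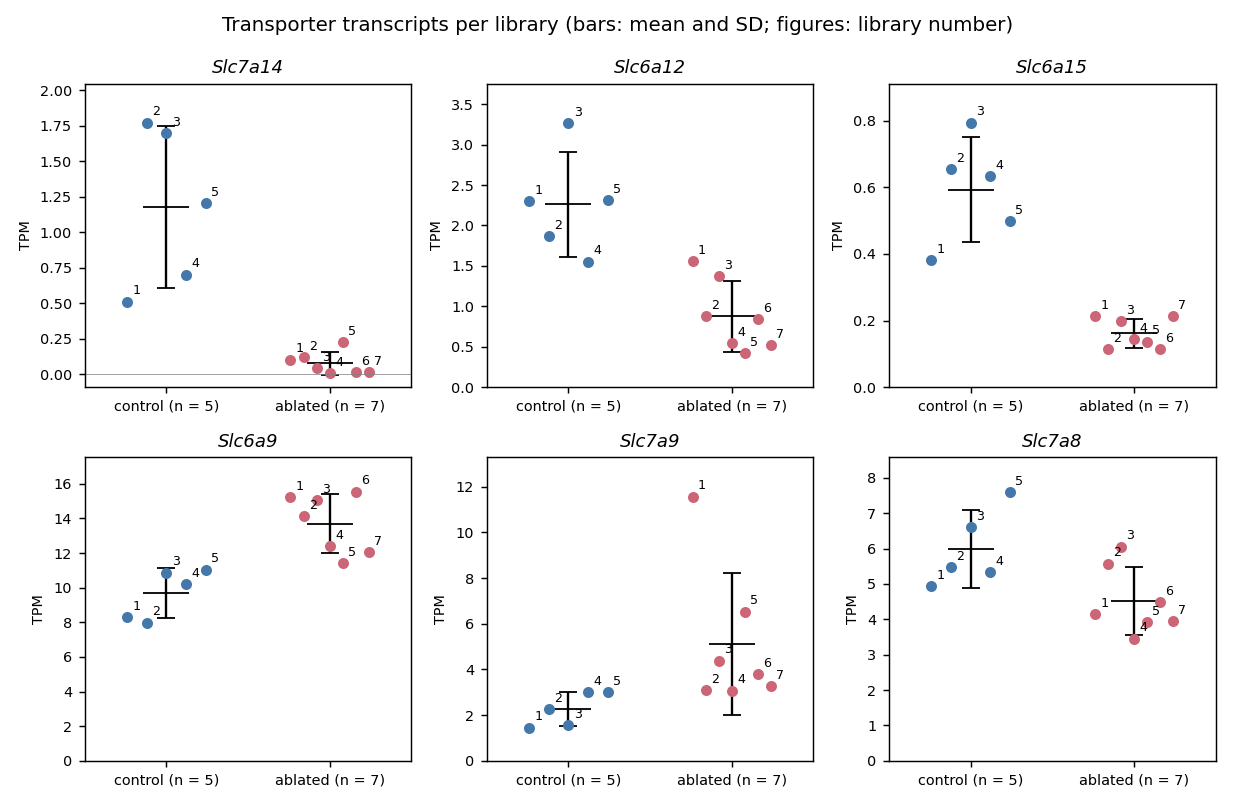
TPM per library of 6 transporter genes (y axis from 0) for control (n = 5) and ablated (n = 7) libraries, with mean and SD as bars and library numbers beside the points. Slc7a14 and Slc6a15 do not overlap between groups, Slc6a12 overlaps at ablated library 1, and Slc6a9 and Slc7a9 lie higher in all 7 ablated libraries without passing the adjusted test.

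The 250 bases before the start of the 2 genes that passed are shown because they differ in their content of CG pairs, a feature by which promoters are classed. RefSeq sequence (GRCm38.p6) was matched by symbol for 47 of the 65 members and 27025 genes in all; 59 bases of the Slc7a14 window that lie in an annotated exon are left out. CG pairs are in capitals.
Slc7a14 (chr3:31310379-31310569, minus strand): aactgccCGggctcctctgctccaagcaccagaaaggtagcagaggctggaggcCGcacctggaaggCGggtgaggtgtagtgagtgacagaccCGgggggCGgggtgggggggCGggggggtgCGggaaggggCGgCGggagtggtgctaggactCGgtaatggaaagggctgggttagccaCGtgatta
Slc6a12 (chr6:121342324-121342573, plus strand): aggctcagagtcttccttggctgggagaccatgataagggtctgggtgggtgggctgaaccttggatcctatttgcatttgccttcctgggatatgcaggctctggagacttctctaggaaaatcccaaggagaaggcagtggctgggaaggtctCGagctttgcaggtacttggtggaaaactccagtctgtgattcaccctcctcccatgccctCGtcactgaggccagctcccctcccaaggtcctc
The full Slc7a14 window holds 15 CG pairs and 66.8% G and C, and that of Slc6a12, which is the window of 1 of 5 starts listed for the gene, holds 2 CG pairs and 55.6%. The median over all windows was 6 CG pairs and 52.0%, and over the 47 members 11 CG pairs and 57.2%. At least 15 CG pairs were found in 27.5% of all windows and at most 2 in 29.6%.

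Motifs were searched as letters on both strands of the 250 bases. The cyclic AMP response element TGACGTCA, read by CREB and ATF factors, is in 1.60% of all windows and in that of Slc38a6 among the members. The C/EBP-ATF element TGATGNAAT, through which ATF4 acts on amino acid genes, is in 0.825% of all windows and in that of Slc6a21. The left part of the neuron-restrictive element RE1, TTCAGCACC, is in 0.292% of all windows and in no member's. The E-box CAGCTG is in 12.7% of all windows and in 6 of the 47 members' windows (12.8%), those of Slc1a6, Slc38a4, Slc38a6, Slc38a8, Slc6a19os and Slc7a1; none of the 4 motifs contains another. The windows of Slc7a14 and Slc6a12 hold none of the 4.

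Among the carriers of glycine and proline, Slc6a9, the glycine transporter GlyT1, was 8.29, 7.98, 10.9, 10.2 and 11.05 TPM in control libraries and 15.2, 14.1, 15.1, 12.4, 11.4, 15.6 and 12.1 TPM in ablated libraries. All 7 ablated libraries lay above all 5 controls, at 13.7 ± 1.70 (SD, n = 7) against 9.68 ± 1.45 (SD, n = 5) TPM. The log2 fold change was 0.48 (95% interval 0.21 to 0.75) and did not pass (limma adjusted p = 0.0915). Slc6a9 passed in 2 of 24 alternative settings. With the epithelium marker score as a covariate the limma adjusted p was 0.0144, in a fit that called 6.78% of all genes higher. With the mitochondrial share of reads as covariate it was 0.0312, beside 2.08% of all genes higher. It did not pass by voom (adjusted p = 0.201) or with any 1 library left out (limma adjusted p 0.0698 to 0.279). The authors' deposited false discovery rate was 0.171. The gene overlaps the genes B4galt2 and Ccdc24 on the opposite strand, and whether reads were counted by strand is not given in the sources used here. The same limit holds for the other tested members that overlap a protein-coding gene, which are Slc1a1, Slc3a1, Slc6a20a, Slc7a4, Slc7a5 and Slc7a7 (7 with Slc6a9). Slc6a9 and Slc7a9 were the 2 tested members of 40 that did not overlap in the higher direction, beside 1.33% of all genes tested.

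Slc6a7, the high-affinity proline transporter known from glutamatergic nerve endings, was 17.0, 16.9, 19.4, 17.9 and 18.1 TPM in controls and 49.4, 26.9, 24.1, 9.83, 12.1, 25.9 and 13.6 TPM in ablated libraries. The controls spanned a 1.15-fold range and the ablated libraries a 5.03-fold range, on both sides of the controls. Its log2 fold change was 0.18 (adjusted p = 0.923). Slc6a5, the glycine transporter GlyT2 of glycinergic neurons, was at 0 in all 12 libraries.

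Among the 6 carriers of GABA, betaine, taurine and creatine, 3 were tested. Slc6a8, the creatine transporter, was 205, 176, 228, 226 and 230 TPM in controls and 196 to 347 TPM (median 268) in ablated libraries. Ablated library 6 lay within the control range and the other 6 lay above every control. The means were 213 ± 22.9 (SD, n = 5) and 269 ± 47.7 (SD, n = 7) TPM, with a log2 fold change of 0.32 (adjusted p = 0.347). Slc6a6, the taurine transporter, was 24.6, 22.6, 25.5, 28.8 and 31.3 TPM in controls and 26.8 to 42.6 TPM (median 35.3) in ablated libraries, of which 4 lay above every control. Its log2 fold change was 0.36 (95% interval 0.06 to 0.66, adjusted p = 0.293). Both passed when each library was given its own weight (adjusted p = 0.0391 for Slc6a8 and 0.0270 for Slc6a6), and Slc6a6 also with the mitochondrial share as a covariate (0.0480). These fits called more genes as a whole: with weights 2 of 40 members were higher (5%) beside 4.05% of all genes and 2 lower beside 2.71%, and with the mitochondrial share 2 of 40 were higher beside 2.08% and 2 lower beside 2.34%. The GABA transporters Slc6a11 and Slc6a13 were below the minimum, with group means of 0.278 and 0.458 TPM and of 0.145 and 0.124 TPM, control first. The monoamine transporters Slc6a2 (noradrenaline) and Slc6a3 (dopamine) had group means of at most 0.0340 TPM.

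The high-affinity glutamate transporters were led by Slc1a1, the carrier EAAT3 of epithelia and neurons. It was 24.1, 23.5, 20.1, 22.6 and 20.9 TPM in controls and 9.70 to 27.1 TPM (median 22.3) in ablated libraries, with 3 ablated libraries below and 3 above every control. Slc1a3, the glial carrier GLAST, was 0.868 ± 0.204 (SD, n = 5) and 0.618 ± 0.145 (SD, n = 7) TPM (log2 fold change -0.29, adjusted p = 0.533). Slc1a2, the main glutamate carrier of astrocytes, was 0.0547 to 0.182 TPM in control and 0.0482 to 0.353 TPM in ablated libraries, and Slc1a6 and Slc1a7 were also below the minimum. Neither of the 2 tested glutamate carriers passed by limma or voom, and neither had an unadjusted p under 0.05.

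The neutral amino acid exchanger Slc1a5 (ASCT2), a glutamine carrier, was among the 4 most abundant members. It was 154, 172, 183, 166 and 189 TPM in controls and 259, 150, 185, 101, 88.1, 239 and 104 TPM in ablated libraries. Ablated libraries 1 and 6 lay above every control, and libraries 2, 4, 5 and 7 below. The means were 173 ± 14.0 (SD, n = 5) and 161 ± 69.0 (SD, n = 7) TPM (log2 fold change -0.21, adjusted p = 0.854). Its relative Slc1a4 (ASCT1) was 13.03 ± 2.86 and 12.8 ± 3.46 TPM.

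The heavy chain Slc3a2 (CD98), which brings several light chains to the membrane, was 33.8, 32.0, 32.8, 44.8 and 38.7 TPM in controls and 38.7 to 50.7 TPM (median 43.6) in ablated libraries, of which 3 lay above every control. Its log2 fold change was 0.28 (95% interval 0.05 to 0.52, adjusted p = 0.303). The other heavy chain, Slc3a1 (rBAT), was 0.754, 1.23, 1.12, 1.21 and 2.04 TPM in controls and 0.787 to 5.08 TPM (median 1.79) in ablated libraries, with library 5 highest. Its log2 fold change was 0.46 (adjusted p = 0.649).

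Slc7a9, the light chain that pairs with rBAT to take up cystine and basic amino acids, lies on chromosome 7 from 35448796 to 35466036. It was 1.46, 2.26, 1.58, 3.01 and 2.995 TPM in controls and 11.6, 3.09, 4.39, 3.08, 6.53, 3.80 and 3.26 TPM in ablated libraries. All 7 ablated libraries lay above all controls, though libraries 2 and 4 did so by little, and library 1 stood apart. The means were 2.26 ± 0.744 (SD, n = 5) and 5.10 ± 3.10 (SD, n = 7) TPM (log2 fold change 0.92, 95% interval 0.27 to 1.58, adjusted p = 0.207).

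Slc7a8 (LAT2), a light chain for neutral amino acids, was 4.94, 5.48, 6.61, 5.33 and 7.59 TPM in controls and 3.46 to 6.06 TPM (median 4.16) in ablated libraries, of which 5 lay below every control. Its log2 fold change was -0.38 (95% interval -0.72 to -0.04, adjusted p = 0.353). Slc7a5 (LAT1), the light chain for large neutral amino acids, was 4.68 ± 1.23 and 5.89 ± 1.01 TPM (adjusted p = 0.545). Slc7a7, the light chain that exports basic amino acids from epithelial cells, was 24.0, 20.02, 21.2, 24.8 and 22.4 TPM in controls and 17.6 to 34.8 TPM (median 26.6) in ablated libraries, with 3 below and 4 above every control. Slc7a6 had group means of 6.99 and 7.45 TPM, the cystine carrier Slc7a11 0.742 and 0.707 TPM, and Slc7a15 0.523 and 0.424 TPM. Of 10 light chains 7 were tested and none passed by limma or voom. At an unadjusted p under 0.05, 1 was lower and 1 higher, beside 4.75% and 7.07% of all genes tested. Slc7a10, Slc7a12 and Slc7a13 were below the minimum.

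The 4 other genes grouped with the cationic carriers did not pass. Slc7a2, an arginine carrier of muscle and activated macrophages, was 0.693, 0.732, 0.572, 1.56 and 1.32 TPM in controls and 0.603 to 2.12 TPM (median 1.44) in ablated libraries, on overlapping ranges (log2 fold change 0.35, adjusted p = 0.648). The ubiquitous arginine carrier Slc7a1 had group means of 6.42 and 7.07 TPM, Slc7a3 of 0.778 and 0.616 TPM, and Slc7a4 of 8.91 TPM in both groups. Slc7a14 was the 1 gene of 5 in this group that passed, beside 1.01% of all genes tested that were lower. It reached the minimum through the control libraries alone, so the count of 1 in 5 is only a description.

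Slc6a14, which takes up neutral and cationic amino acids with sodium and chloride, was the most abundant member. It was 286, 263, 220, 305 and 282 TPM in controls and 131, 215, 299, 427, 469, 197 and 398 TPM in ablated libraries. Ablated libraries 1, 2 and 6 lay below every control and libraries 4, 5 and 7 above. The means were 271 ± 32.2 (SD, n = 5) and 305 ± 129 (SD, n = 7) TPM (log2 fold change 0.05, adjusted p = 0.977). Among its SLC6 relatives, the vesicular carrier Slc6a17 had group means of 4.08 and 4.82 TPM, the epithelial carrier Slc6a19 0.537 and 0.740 TPM, and the proline carrier Slc6a20a 4.32 and 4.48 TPM; none of these 4 passed by limma or voom or had an unadjusted p under 0.05. Slc6a20a has a close copy, Slc6a20b, at 0.0753 and 0.0755 TPM, and reads of the pair may be split between them. Slc6a16, Slc6a18 and Slc6a21 were at group means of at most 0.0386 TPM.

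The proton-coupled carrier Slc36a1 (PAT1), which moves glycine, proline and alanine, was 61.5, 44.8, 76.0, 75.4 and 88.9 TPM in controls and 44.9 to 111 TPM (median 68.6) in ablated libraries, with libraries 3, 4 and 7 above every control. Its log2 fold change was 0.10 (adjusted p = 0.946). Slc36a4, a proline and tryptophan carrier, was 1.08, 0.694, 0.472, 1.81 and 1.83 TPM in controls and 0.3995, 1.03, 2.10, 4.46, 3.30, 1.69 and 4.36 TPM in ablated libraries. Its ablated values spanned an 11.2-fold range, with 4 libraries above and 1 below every control (log2 fold change 0.70, 95% interval -0.21 to 1.60, adjusted p = 0.586). Slc36a2 and Slc36a3 were below the minimum.

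Of 11 SLC38 genes 7 were tested and none passed by limma or voom. At an unadjusted p under 0.05, 0 were lower and 1 higher, beside 4.75% and 7.07% of all genes tested. That gene was Slc38a2 (SNAT2), a glutamine and alanine carrier that cells raise on amino acid shortage, at 56.6, 58.5, 62.0, 61.9 and 66.5 TPM in controls and 64.5 to 83.3 TPM (median 71.9) in ablated libraries. Of its ablated libraries 5 lay above every control (log2 fold change 0.23, 95% interval 0.04 to 0.42, adjusted p = 0.300). Slc38a10 was 24.1, 22.8, 20.995, 30.6 and 30.0 TPM in controls and 23.2 to 33.3 TPM (median 29.4) in ablated libraries (adjusted p = 0.739). The glutamine carrier Slc38a1 had group means of 17.0 and 15.6 TPM, Slc38a6 10.3 and 10.1 TPM, the lysosomal carrier Slc38a7 9.21 and 9.81 TPM, the lysosomal arginine sensor Slc38a9 2.43 and 2.65 TPM, and Slc38a11 0.776 and 0.925 TPM. Slc38a3, Slc38a4, Slc38a5 and Slc38a8 were below the minimum, and Slc38a3 had the highest mean of the untested members at 0.427 TPM.

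The 3 SLC43 genes were tested and none passed by limma or voom or had an unadjusted p under 0.05. Slc43a1 (LAT3) had group means of 4.19 and 4.67 TPM, Slc43a2 (LAT4) 3.09 and 3.05 TPM, and Slc43a3, a carrier of purine bases, 12.8 and 15.8 TPM. The symbol rule also takes in 3 opposite-strand genes, which are named for a neighbour and are not carriers themselves. Slc7a6os, a protein-coding gene involved in bringing RNA polymerase II into the nucleus, was 52.3, 57.5, 52.5, 47.2 and 48.3 TPM in controls and 83.4, 64.1, 53.9, 37.6, 42.6, 73.2 and 41.3 TPM in ablated libraries, with 3 below and 3 above every control. Slc6a19os and Slc36a1os were read in 3 and 1 of the 12 libraries.

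**Figure D3:**
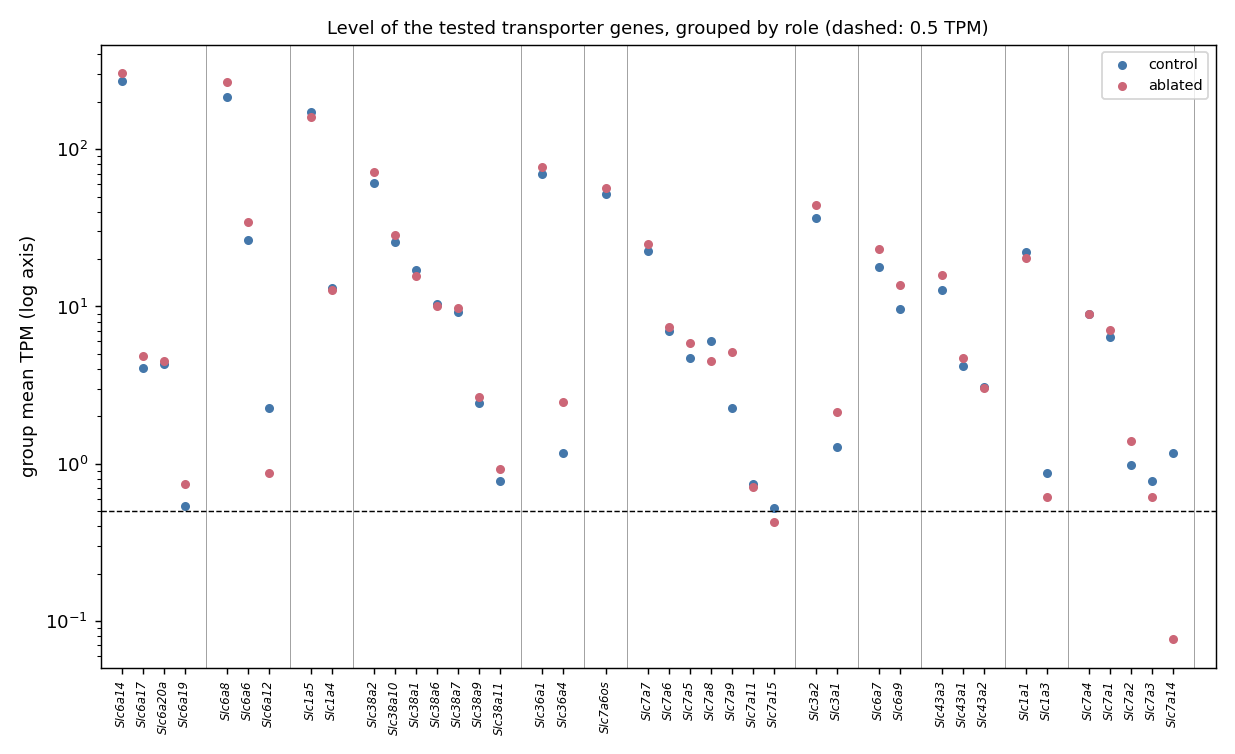
Group mean TPM (log axis) of the 40 tested members, control and ablated, grouped by role, with the 0.5 TPM line dashed. The levels run from Slc6a14 at 271 and 305 TPM down to under 1 TPM, and the group means of Slc7a14 lie on either side of the line at 1.18 and 0.0766 TPM, as do those of Slc7a15 at 0.523 and 0.424 TPM.

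In TPM, which are per length, Slc6a14, Slc6a8, Slc1a5 and Slc36a1 together held 64.2% of the members' summed level and the 10 most abundant members 84.4%. The sum over all 65 was 1055 to 1215 TPM in control and 1125 to 1414 TPM in ablated libraries. Slc6a14 and Slc6a8 did not differ in order beyond their spread (291 and 246 TPM over all 12 libraries), nor did Slc36a1 and Slc38a2 (74.0 and 67.4 TPM). Of the 25 untested members, 14 had a mean under 0.1 TPM. For a transcript of 1 kilobase a single read stands for 0.0697 to 0.129 TPM, so these levels rest on few reads.

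The members varied more among ablated than among control libraries. The SD of log2(TPM + 0.5) was larger in the ablated group for 33 of the 40 tested members (82.5%), beside 83.5% of all genes tested, with medians of 0.21 in control and 0.35 in ablated libraries for the members and 0.20 and 0.37 for all genes. Ablated libraries 1 and 6 were high in Slc1a5, Slc6a7 and Slc7a6os and low in Slc6a14, and libraries 4, 5 and 7 showed the reverse. The score of the epithelium markers (mean centred log2 level) was -0.47, 0.04, 0.16, 0.50, 0.56, -0.26 and 0.49 in ablated libraries 1 to 7 and -0.38, -0.32, -0.35, 0.04 and -0.01 in control libraries 1 to 5. The mitochondrial share of reads was 18.7, 7.36, 4.92, 4.15, 4.501, 10.4 and 3.56% in ablated libraries 1 to 7 and 5.41 to 10.0% in controls.

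With the epithelium score as a covariate, Slc6a14 and Slc1a1 were lower in ablated colon (limma adjusted p = 0.0291 and 0.0259), and Slc6a9, Slc6a7 and Slc7a6os higher (0.0144, 0.0299 and 0.0109). Slc7a14 and Slc6a12 were lower there too (0.00525 and 0.0318). That fit called 1096 genes higher (6.78%) and 1453 lower (8.99%) over the whole table, against 68 and 163 without the score, so its 3 higher (7.5%) and 4 lower (10%) of the 40 members lie near the share of all genes. Ablated library 1 was also the shallowest at 13.4 M reads. The part of epithelial content, mitochondrial share and depth in the spread was not tested.

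**Figure D4:**
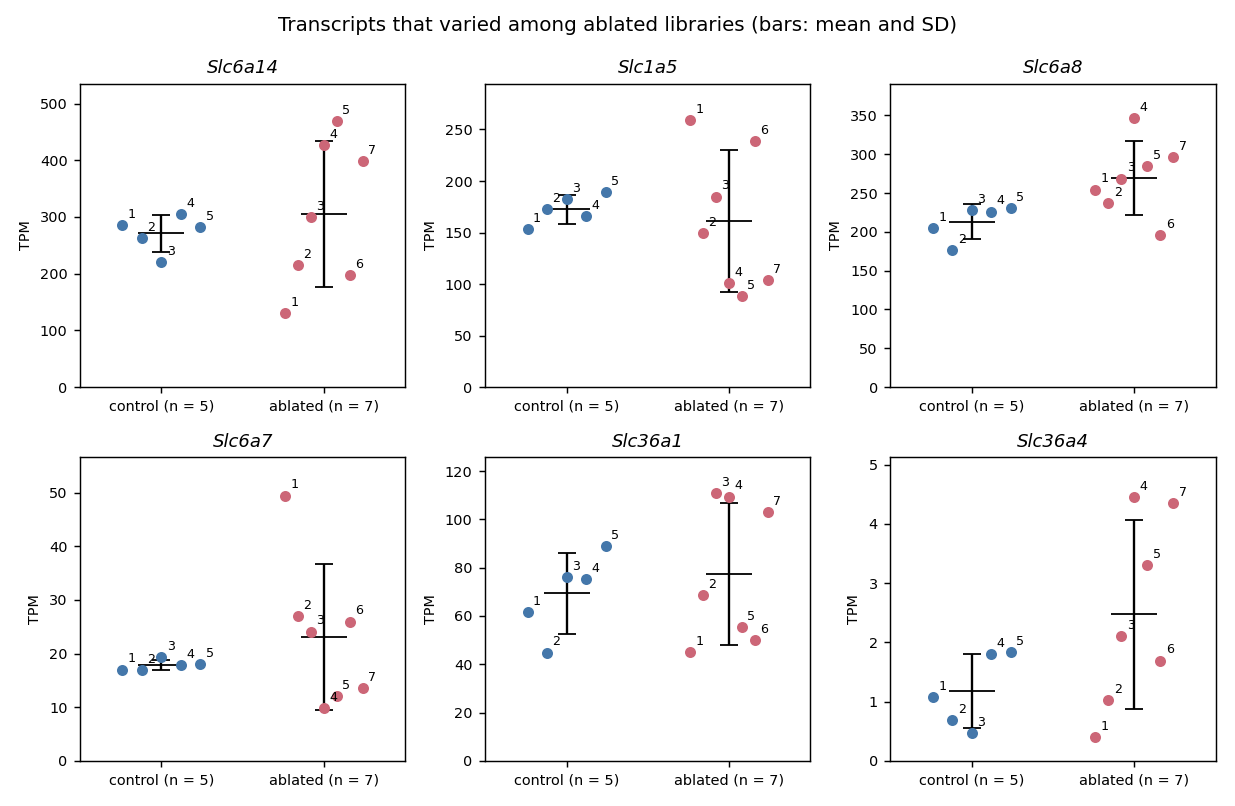
TPM per library (y axis from 0) of 6 members that varied among ablated libraries, with mean and SD as bars and library numbers beside the points. Ablated libraries 4, 5 and 7 are high in Slc6a14 and low in Slc1a5 and Slc6a7, while libraries 1 and 6 show the reverse, and the 5 controls lie closer together in each panel.

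**Figure D5:**
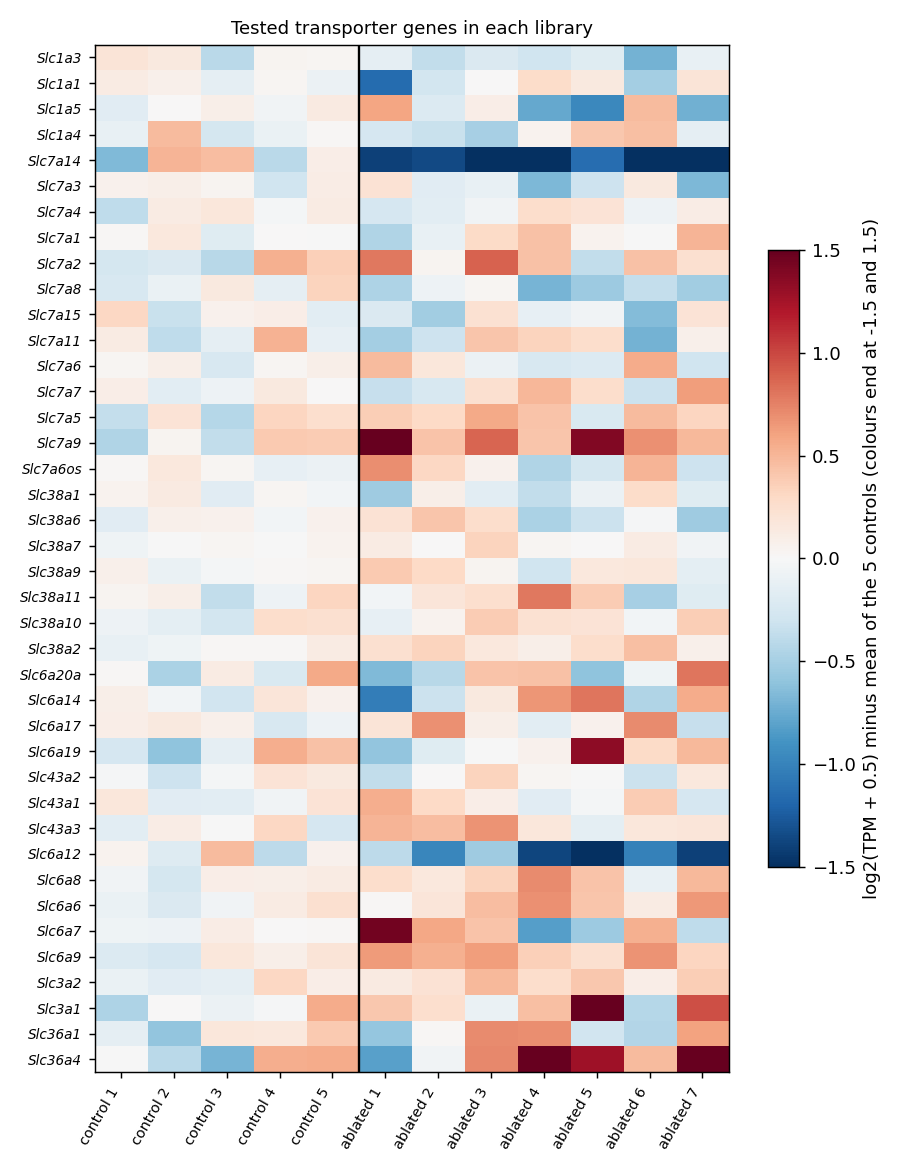
Log2(TPM + 0.5) of the 40 tested members in each library (columns), minus the mean of the 5 controls, in colours that end at -1.5 and 1.5. Slc7a14 is below the control mean in all 7 ablated libraries, and the columns of ablated libraries 1 and 6 differ from those of libraries 4, 5 and 7.

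Other genes of transmitter handling and amino acid supply were read from the same fit. Of 22 genes for transmitter vesicles, synthesis and breakdown 16 were tested, with a median log2 fold change of -0.17. Of the 16, 3 were lower and 0 higher, beside 1.01% and 0.421% of all genes tested. The 3 were Slc18a3 and Slc5a7, which load acetylcholine into vesicles and choline into nerve endings, and Dbh, the enzyme that makes noradrenaline. The vesicular carrier Slc18a3 was 0.864 to 1.86 TPM in control and 0.0331 to 0.275 TPM in ablated libraries (adjusted p = 0.000530), and Dbh 0.508 to 4.51 and 0 to 0.509 TPM (0.00624). Slc18a3 and Slc5a7 reached the minimum through the control libraries alone, so the count of 3 in 16 is only a description. With no minimum all 22 genes entered the fit. Of these 3 were lower, beside 1.20% of all genes (limma adjusted p = 0.000329 for Slc18a3, 0.00127 for Slc5a7 and 0.00766 for Dbh).

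Of 50 receptor genes for glutamate, GABA and glycine 13 were tested and 5 were at 0 in all libraries. The median log2 fold change was 0.01. Of the 13, 1 was lower and 0 higher, beside 1.01% and 0.421% of all genes tested. That gene was Glrb, the beta subunit of the glycine receptor, at 0.746 to 1.60 TPM in control and 0.212 to 0.4998 TPM in ablated libraries (means 1.21 ± 0.331 and 0.320 ± 0.108, adjusted p = 0.00515). Glrb too reached the minimum through the controls alone. With no minimum, 45 receptor genes entered the fit and 3 were lower, beside 1.20% of all genes, Glrb at an adjusted p of 0.00215 among them. The kainate receptor subunit Grik1 was also lower there (0.510 ± 0.208 and 0.0289 ± 0.0261 TPM, limma adjusted p = 0.00135, on 113 and 8 reads). The neuron markers moved with these genes as well, and their part was not tested.

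Genes of the cell's response to amino acid supply did not pass one by one. Of 24 genes of the ATF4 amino acid response 23 were tested and none passed by limma or voom. At an unadjusted p under 0.05, 0 were lower and 3 higher, beside 4.75% and 7.07% of all genes tested. The median log2 fold change was 0.08, beside 0.03 for all genes tested. The summed level of the 24 genes was 702 to 794 TPM in control and 834 to 973 TPM in ablated libraries, ranges that did not overlap. A sum follows its most abundant genes, and the share of such sums that do not overlap between the groups was not tested. Of the 23 tested, 16 had a positive log2 fold change and 7 a negative one, beside 55.7% positive over all genes tested. The stress-induced regulator Nupr1 had the smallest p, at 143 ± 15.6 (SD, n = 5) and 253 ± 83.8 (SD, n = 7) TPM (limma adjusted p = 0.0705). This 1 gene thus weighs heavily in the sum. Its groups did not overlap, as in 1.33% of all genes tested in the higher direction. The secreted hormone Stc2 followed (15.05 and 27.2 TPM, adjusted p = 0.183). All 30 genes of amino acid sensing by mTORC1 were tested and none passed by limma or voom. At an unadjusted p under 0.05, 1 was lower and 3 higher, beside the same shares of all genes. The median log2 fold change was 0.07. The Rag GTPase Rragb was 1.55 and 0.825 TPM (adjusted p = 0.192) and the folliculin partner Fnip1 9.97 and 12.7 TPM (0.211).

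Of 20 other amino acid and peptide carriers and their partners 19 were tested and none passed by limma, while voom called 1 lower. At an unadjusted p under 0.05, 1 was lower and 2 higher, beside 4.75% and 7.07% of all genes tested. The median log2 fold change was 0.10. The aromatic amino acid carrier Slc16a10 had the smallest limma p, at 2.97 ± 0.229 (SD, n = 5) and 1.80 ± 0.493 (SD, n = 7) TPM (adjusted p = 0.124). Its groups did not overlap, as in 1.55% of all genes tested in the lower direction. The lysosomal cystine carrier Ctns came next at 15.9 and 19.2 TPM (adjusted p = 0.363).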

How the data were processed

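Polyadenylated RNA of full-thickness colon was sequenced as directional libraries after Trizol extraction, per the labels' protocols. Per the submitters' processing notes, bcl2fastq 2.17, HISAT and featureCounts were used with mm10; roles and other versions are not given in the sources used here. The authors deposited TPM per gene for 12 libraries, as single files and as a series table with identical values. The authors' deposited table of a group comparison holds p-values, false discovery rates, log2 fold changes, mean log2 CPM and, as a score, F statistics.

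A gene entered the fit if 5 or more libraries had 0.5 TPM or more. R 4.3.3 and limma 3.58.1 (lmFit, then eBayes with a trend) were run on log2(TPM + 0.5), two-sided, Benjamini-Hochberg over all 16164 genes, passing at an adjusted p under 0.05. Whole reads were recovered from the TPM to state depth and to run voom: a length was found for 22840 of 22842 genes and 99.99% of values lay within 0.05 of a whole number. Coordinates came from GENCODE M21 by Ensembl ID. Python 3.11.15, pandas 2.3.3, numpy 2.4.6 and matplotlib 3.10.9 made tables and figures.

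Members and lists were chosen with earlier results of these data known. Control values per library are given for members that passed, tested members that did not overlap, the 10 largest log2 fold changes and the 10 highest levels. Their ablated values are given per library or as range and median. For lists, members that passed or up to 2 with the smallest p are named. Slc6a15, Slc6a7, Slc1a1, Slc7a6os and Grik1 were given more room after their values were seen. Some results on genes of these families and lists are not reported here. Neuron, glia, smooth muscle, epithelium, plasma and B cell, T cell, macrophage, fibroblast, endothelium, interstitial cell of Cajal, mesothelium and mast cell markers were read from the same fit. Alternatives changed the added constant, minimum, scaling, variance model, weights, covariates, library numbers as a block, and the libraries; the mitochondrial share and the settings of Slc6a15 were added after the data were seen.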

Additional observations from a re-analysis of the deposited data

Results flagged for a closer look

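Of 82 groups of transporter values examined (5 control or 7 ablated libraries of 1 gene), 7 had 1 library far from the others; the rule used flags about 1 group in 20 by chance. In the ablated group, library 1 stood high in Slc6a7 at 49.4 TPM (next highest 26.9) and in Slc7a9 at 11.6 TPM (next 6.53). Ablated library 5 stood high in Slc6a19 at 2.01 TPM (next 0.894) and low in Slc7a5 at 3.83 TPM (next 5.72). Ablated library 3 stood high in Slc38a7 at 11.7 TPM (next 10.1). In the control group, library 4 stood low in Slc7a3 at 0.537 TPM (next 0.804) and library 3 low in Slc7a6 at 5.84 TPM (next 7.11).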

How the results depend on the processing

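The number of members lower in ablated colon, 2 as reported, was 0 with a minimum of 1 TPM (Slc7a14 is then not tested), 1 with an added constant of 0.1, with median-of-ratios scaling or with the smooth muscle score as a covariate, 4 with the epithelium score, and 1 to 2 with each library left out in turn. Where it fell to 1, Slc6a12 was the gene lost (limma adjusted p 0.0605, 0.0569 and 0.0682 in the settings named). With the 1 TPM minimum Slc6a12 was lost as well (0.0583), beside the untested Slc7a14. The number higher, 0 as reported, was 2 with a weight per library (4.05% of all genes), 2 with mitochondrial share as a covariate (2.08%), 3 with the epithelium score (6.78%), and 0 with each library left out.

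The log2 fold change turned negative with the epithelium score for Slc36a1 (-0.22), Slc36a4 (-0.0347), Slc38a10 (-0.0212), Slc6a14 (-0.47) and Slc7a7 (-0.18) and positive for Slc1a5 (0.22). It also turned for Slc6a14 by voom (-0.0240) and for Slc7a6os with a weight per library (-0.15). With each library left out Slc36a1 ran from -0.0427 (without control 2) to 0.22, Slc6a14 from -0.0736 (without ablated 5; also negative without control 3 or ablated 4 or 7) to 0.23, and Slc7a6os from -0.0232 (without ablated 1) to 0.17. Slc7a14 kept its direction and passed in the settings run other than the replicate block. Voom split the calls over all genes into 48 higher and 216 lower, against 68 and 163.

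With the library number as a replicate block, 0 members were lower and 0 higher (adjusted p 0.0766 for Slc7a14 and 0.169 for Slc6a12), and Slc6a15 with no minimum had 0.117; over all genes 15 were higher and 69 lower. Same-numbered libraries correlated at -0.27 to 0.36 after group means were removed, and 1 of 5 correlated best with its own number, so the numbers are not taken as pairs. Depth limits the genes under about 1 TPM, which rest on few reads.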
